A study of Mus musculus with 89 samples.

Results

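The 39 interferon-stimulated genes described here are a list of gene symbols. Of the 39, 33 had a probe set that carried their symbol alone, and each gene was read from 1 probe set, the one brightest on average across all 89 arrays. Oas1a, Bst2, Ifi44, Isg15, Gbp6 and Tap1 had no such probe set and were not analysed here. Of the 33 measured genes, 31 passed the filter on dim genes and entered the tests, among 15065 genes tested in all. Oasl1 and Mx2 were above the filter on 1 array each and were described only by their level.

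The arrays measured lung RNA of male mice aged 7 to 8 weeks, from C57BL/6, from BALB/c and from SP-D-/- animals, which lack surfactant protein D, an antimicrobial lectin of the airspaces, in every cell. Each of the 3 strains was studied under 6 exposures, which gave 18 groups of 2 to 6 arrays. Air alone or ozone alone was breathed for 2 h and the lungs were taken 12 h later, with ozone at 3 ppm. The other animals were first sensitised to the allergen of the mould Aspergillus fumigatus (Af) by intraperitoneal injection (days 0 and 7), with a nasal challenge on day 13. Their lungs were taken at 24 h (air), at 96 h (ozone) or at 168 h (air in some groups, ozone in others), counted from the challenge. The number of arrays in the order air, ozone, Af 24 h air, Af 96 h ozone, Af 168 h air and Af 168 h ozone was 6, 6, 4, 5, 4 and 6 for C57BL/6. It was 5, 4, 6, 6, 5 and 4 for SP-D-/- and 5, 2, 5, 6, 6 and 4 for BALB/c. The 96 h groups all breathed ozone, so they were compared with ozone alone. In a whole lung lobe, fewer cells of a type and less RNA per cell cannot be told apart.

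Interferons are cytokines that cells release on sensing microbes, above all viruses, and type I interferons and interferon-gamma act through separate receptors. Type I interferon acts largely through interferon-stimulated response elements, which a complex with STAT2 and IRF9 binds, whereas interferon-gamma acts mainly through gamma-activated sites and through IRF1. The genes induced encode sensors of viral RNA, enzymes and proteins that block viral replication, chemokines for T cells and NK cells, GTPases that attack pathogens inside cells, and parts of the machinery that prepares antigens for MHC class I.

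By role, the tested genes were 4 transcription factors, 8 RNA sensors and proteins of the double-stranded RNA response, 10 antiviral effectors, the ISG15 protease Usp18, 2 chemokines, 4 GTPases induced by interferon-gamma and 2 subunits of the immunoproteasome. Their mean log2 signal over the 89 arrays ran from 3.19 for Cxcl9 to 10.5 for Ifitm3. Cxcl9 was above the filter, a log2 signal of 4.45, on 5 arrays, Oas3 on 36 and Dhx58 on 41. The means of the 18 groups spanned 0.60 on the log2 scale for Mx2, which was dim throughout, and 2.78 for Ifit2. Gbp2 (2.65), Xaf1 (2.47) and Cxcl10 (2.42) came next after Ifit2.

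RefSeq promoter sequences (build GRCm38.p6, 250 bases before to 50 after each start, 35 promoters) were matched to 31 of the 39 genes. The genes not matched were Dhx58, Zbp1, Oas2, Mx1, Mx2, Rtp4, Usp18 and Gbp6. The core of the interferon-stimulated response element, which is GAAA, any 2 bases and GAAA again on either strand, was found in 48.6% of these promoters and in 3.44% of all 32851 promoters of the same length. The core of the gamma-activated site, TTCNNNGAA, was found in 25.7% of them and in 8.3% of all. The bases before the start are printed for Cxcl10, called 24 h after challenge in all 3 strains, for Irf1, called at that time in SP-D-/- and BALB/c, and for Ifit3, called at 96 h in C57BL/6. Capitals mark a match to either core.
Cxcl10, chr5:92348890-92349139, minus strand: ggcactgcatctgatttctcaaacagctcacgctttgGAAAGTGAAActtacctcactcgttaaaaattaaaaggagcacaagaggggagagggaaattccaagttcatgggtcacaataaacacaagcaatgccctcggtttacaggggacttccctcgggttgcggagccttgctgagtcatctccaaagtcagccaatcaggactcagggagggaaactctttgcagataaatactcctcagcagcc
Irf1, chr11:53769764-53770013, plus strand: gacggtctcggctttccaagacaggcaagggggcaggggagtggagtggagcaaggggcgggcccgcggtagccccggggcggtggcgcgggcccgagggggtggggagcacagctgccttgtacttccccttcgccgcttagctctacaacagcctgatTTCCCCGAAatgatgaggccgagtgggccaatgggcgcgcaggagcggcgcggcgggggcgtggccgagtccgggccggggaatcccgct
Ifit3, chr19:34583279-34583528, plus strand: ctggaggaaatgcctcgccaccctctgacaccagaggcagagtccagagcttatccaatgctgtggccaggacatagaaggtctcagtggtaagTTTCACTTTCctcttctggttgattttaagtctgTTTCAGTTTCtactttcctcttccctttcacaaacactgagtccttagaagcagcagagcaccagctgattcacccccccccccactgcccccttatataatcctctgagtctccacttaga
The Cxcl10 match is the response element core, 213 to 204 bases before the start. Ifit3 has that core at 156 to 147 and again at 122 to 113 bases before the start, read on the opposite strand. The Irf1 match is the gamma-activated site core, 90 to 82 bases before the start, and the other Irf1 promoter in the table holds neither core.

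Array labels were checked against Sftpd, the gene disrupted in SP-D-/- animals, and against 40 genes that separated BALB/c air from C57BL/6 air arrays. Sftpd was at a log2 signal of 7.76 or lower on every array labelled SP-D-/- except 1, and between 9.61 and 11.2 on the wild-type arrays with no doubt on their label. A doubted label was one where Sftpd was under 9 in a wild-type array or above 8 in an SP-D-/- array, or where the 40 genes placed the array on the other strain's side. These arrays were BALB/c Af 24 h replicates 4 and 5, BALB/c Af 168 h ozone replicate 6, C57BL/6 Af 96 h ozone replicate 1, C57BL/6 Af 168 h ozone replicate 5 and SP-D-/- Af 96 h ozone replicate 1. On a scale where the C57BL/6 air arrays centre on -1 and the BALB/c air arrays on 1, both doubted BALB/c Af 24 h arrays lay on their own strain's side (0.17 and 0.56), so for them it was Sftpd alone that went against the label. The alveolar type 2 list, of the cells that make surfactant, ran from 8.45 to 11.8 in that group and from 11.6 to 11.9 in BALB/c air. C57BL/6 Af 168 h ozone replicate 5 was only just past the midpoint (0.015), with Sftpd at 9.20. The other doubted arrays lay further from their labels. SP-D-/- Af 96 h ozone replicate 1 had an Sftpd signal of 10.9, within the wild-type range given above, and a strain value of -0.88. C57BL/6 Af 96 h ozone replicate 1 had a strain value of 0.71 and an Sftpd signal of 10.9. For BALB/c Af 168 h ozone replicate 6 these were -0.34 and 5.59. Whether the doubted arrays carry a wrong label or differ in tissue or RNA was not tested. Results are given with all 89 arrays and, where it matters, with the 83 arrays that remain. The difference between the 3′ and 5′ probe sets of beta-actin, called the actin difference, was taken as a measure of RNA integrity at labelling. The mean of 10 hybridization control probe sets, called the spike level here, ran from 7.86 to 11.8 between arrays. The slope on the spike level was fitted together with group, on the 83 arrays whose labels were not doubted. The signal of 20 of the 31 tested members fell as the spike level rose and that of 4 rose. So 77.4% of members were called, against 73.5% of all genes (46.7% with a falling slope). The median slope was -0.22 log2 units per unit of spike level over members and -0.09 over all genes. Gbp2 (-0.79), Usp18 (-0.66), Gbp3 (-0.66), Irgm1 (-0.64) and Xaf1 (-0.60) had the steepest falling slopes, whereas the slope was not called for Cxcl10 (-0.01, adjusted p = 0.904) or Oas2 (0.06, adjusted p = 0.232). The part of this technical level in each result was not tested, and values from a fit with the spike level as a covariate stand beside the results it moved.

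**Figure D1:**
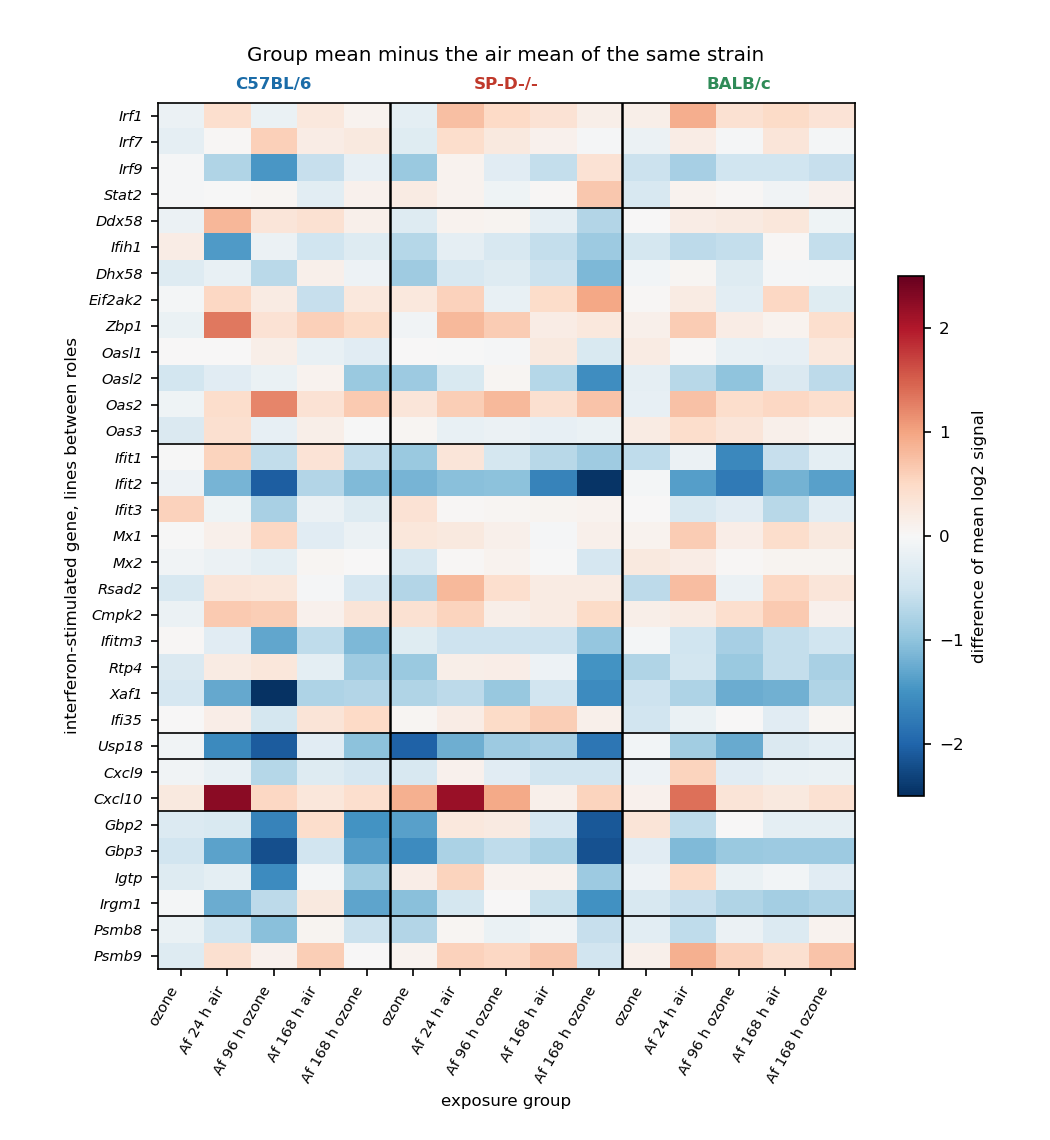
Difference between each exposure group and the air group of the same strain in mean log2 signal (colour scale), for the 33 measured interferon-stimulated genes (vertical axis, ordered by role) and 15 groups (horizontal axis). Cxcl10 was higher than air in all 3 groups sampled 24 h after Af, and Ifit2 had a lower mean than air in all 15 groups.

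The comparison of Af 24 h with air asked which members had changed 24 h after the last Af challenge in each strain. Cxcl10, which encodes a chemokine for activated T cells and NK cells, rose in all 3 strains, by 4.75-fold in C57BL/6, 4.49-fold in SP-D-/- and 2.60-fold in BALB/c. Zbp1, a sensor of Z-form nucleic acids that can start cell death, rose in C57BL/6 and SP-D-/-. Irf1, a transcription factor of the interferon-gamma response, rose in SP-D-/- and BALB/c. Most members were not called: 3 rose and 1 fell in C57BL/6, 3 rose in SP-D-/-, and 2 rose and 1 fell in BALB/c, of 31 tested (limma moderated test, Benjamini-Hochberg adjusted p under 0.05 over all genes). The share of all genes called in the same comparisons was 16.2% in C57BL/6, 4.71% in SP-D-/- and 12.1% in BALB/c. By direction it was 6.4% higher and 9.78% lower in C57BL/6, 1.6% higher in SP-D-/-, and 3.92% higher and 8.13% lower in BALB/c. Of the members, 12.9% were called in C57BL/6, 9.68% in SP-D-/- and 9.68% in BALB/c. With both directions pooled, the members' share was above that of all genes in SP-D-/- and below it in the other strains. For rises alone, 3, 3 and 2 of the 31 members in C57BL/6, SP-D-/- and BALB/c stood against 6.4%, 1.6% and 3.92% of all genes. These shares rest on few members in each strain. The C57BL/6 count ran from 2 without air replicate 3 to 9 without Af 24 h replicate 3, and the BALB/c count rose to 5 without replicate 5. The share of all genes called in those fits is not given here. The median change over the members was -0.01, 0.10 and 0.04 in that order, against -0.00, 0.01 and -0.01 over all genes.

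Among the chemokines, Cxcl10 had log2 signals of 6.65, 7.53, 8.02 and 8.999 on the C57BL/6 Af 24 h arrays, against a lowest, median and highest value of 5.22, 5.64 and 5.77 on the 6 air arrays. All 4 challenged arrays were above every air array, and the change was 2.25 ± 0.37 (SE; adjusted p = 3.51e-05). In SP-D-/- the 6 challenged arrays ran from 6.55 through a median of 7.22 to 9.26, and the 5 air arrays were at 5.05, 5.48, 5.49, 5.56 and 5.61. These groups did not overlap either (2.17 ± 0.35, adjusted p = 2.84e-05). The BALB/c challenged arrays were at 5.94, 6.09, 6.92, 7.27 and 7.58, and the air arrays at 5.09, 5.28, 5.37, 5.55 and 5.61. The groups were again separate (1.38 ± 0.36, adjusted p = 0.007), and the lowest pair of challenged arrays were those with doubted labels. Without them the change was 1.88 ± 0.40 (adjusted p = 0.00168). The response of Cxcl10 in SP-D-/- minus that in C57BL/6 was -0.08 ± 0.51, with a 95% interval from -1.09 to 0.93 and an adjusted p of 0.998. Between BALB/c and C57BL/6 at 24 h the Cxcl10 level differed by -1.04 ± 0.38, which did not pass (adjusted p = 0.292). Cxcl9, a related chemokine that depends more strictly on interferon-gamma, was dim, and it was not called in any strain with all arrays.

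Of the sensors, Zbp1 was at 6.40, 6.41, 6.92 and 7.27 on the C57BL/6 challenged arrays and between 5.28 and 5.59 (median 5.45) on the air arrays. Every challenged array was higher (1.32 ± 0.25, 2.49-fold, adjusted p = 0.000253), although with the mean of both Zbp1 probe sets the change was 0.66 and the adjusted p 0.0635. In SP-D-/- Zbp1 ran from 5.67 through 6.07 to 6.58 after challenge and was at 5.17, 5.21, 5.21, 5.45 and 5.46 in air. The groups did not overlap (0.82 ± 0.24, adjusted p = 0.0282), but the call was lost when any of 5 of the 11 arrays was left out (SP-D-/- air replicates 2, 3 and 5 and Af 24 h replicates 4 and 6), with changes of 0.72 to 0.79. In BALB/c, Zbp1 was at 5.07, 5.16, 5.25, 6.14 and 6.96 after challenge and at 4.87, 4.92, 5.08, 5.23 and 5.27 in air, so that 2 arrays were high and the rest lay among the air arrays. The RNA helicases moved in opposite directions in C57BL/6. Ddx58, which encodes RIG-I, rose by 0.82 ± 0.28 (1.77-fold, adjusted p = 0.0356), from 6.32 to 6.82 over the air arrays to 6.80, 7.10, 7.42 and 7.80. Ifih1, which encodes MDA5, fell by 1.43 ± 0.47 (2.69-fold, adjusted p = 0.0293), with challenged arrays at 4.16, 4.64, 5.45 and 6.96 and air arrays between 6.35 and 7.00. Both pairs of groups overlapped, and these values per array were chosen after they had been seen. The Ddx58 call was lost in 7 of the 10 fits that left out 1 array (air replicates 1, 2, 3, 4 and 6 and Af 24 h replicates 1 and 3, adjusted p from 0.0533 to 0.211). That of Ifih1 was lost without air replicate 3 (adjusted p = 0.0533) or Af 24 h replicate 1 (0.225) or 4 (0.118), and with only the groups compared (0.0567). With the doubted arrays left out and the spike level and actin difference as covariates the values were 0.71 for Ddx58 (adjusted p = 0.174) and -0.83 for Ifih1 (adjusted p = 0.284).

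Of the transcription factors, Irf1 was at 7.63, 7.87, 7.89, 8.01 and 8.01 in SP-D-/- air and ran from 8.23 through 8.66 to 8.94 after challenge. The groups did not overlap (0.75 ± 0.21, 1.69-fold, adjusted p = 0.0175), although the call was lost without air replicate 5 (limma adjusted p = 0.0663) or Af 24 h replicate 4 (0.0505). In BALB/c, Irf1 was at 7.67, 7.79, 7.84, 7.89 and 8.05 in air and at 7.94, 8.71, 8.85, 8.88 and 9.44 after challenge, with 1 doubted array at the bottom among the air arrays (0.91 ± 0.21, 1.88-fold, adjusted p = 0.00266), and with only the groups compared the adjusted p was 0.0702. The C57BL/6 values were 7.27, 8.55, 8.72 and 9.13 after challenge against 7.83 to 8.22 in air, so 3 arrays were high and 1 was below every air array, and Irf1 was not called there. Irf7, Irf9 and Stat2 were not called in any strain at 24 h.

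Of the antiviral effectors, Ifit2, which binds foreign RNA and hinders its translation, fell in BALB/c by 1.38 ± 0.43 (2.61-fold, adjusted p = 0.0244). The BALB/c air arrays were at 6.06, 6.07, 6.37, 6.63 and 7.13 and the challenged ones at 3.21, 5.01, 5.48, 5.50 and 6.14, with the lowest on a doubted array. Without the doubted arrays the change was -0.91 ± 0.44 and no longer passed (adjusted p = 0.245). The call was also lost without air replicate 2 (0.0836) or 3 (0.0554), and with only the groups compared (0.116).

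Leaving the doubted arrays out changed the picture in BALB/c at 24 h, where 6 members then rose and none fell, with 5.79% of all genes called. The values in this paragraph were singled out after they had been seen. Besides Cxcl10 they were Psmb9, an immunoproteasome subunit (1.74 ± 0.35, adjusted p = 0.000626), Igtp, an interferon-gamma GTPase (1.78 ± 0.50, adjusted p = 0.0187), Irf1 (1.16 ± 0.24, adjusted p = 0.000984) and Zbp1 (1.04 ± 0.26, adjusted p = 0.00737). Cxcl9 was the other called member, but it was above the filter on 5 of the 89 arrays, 2 of them in this group (5.12 and 5.05), so it entered the test through the few arrays where it was high and its change is not given. The 3 BALB/c arrays whose labels were not doubted had Psmb9 at 8.05, 8.52 and 8.98 and Igtp at 7.92, 8.14 and 8.95. The doubted pair had Psmb9 at 6.17 and 6.596 and Igtp at 5.13 and 5.14. In air Psmb9 lay between 6.62 and 6.94 and Igtp between 5.81 and 7.19, so the 3 arrays were above every air array and the doubted pair below. With the spike level as a covariate as well, Psmb9 was called at 24 h in each strain, at 0.75 in C57BL/6 (adjusted p = 0.0296), 0.82 in SP-D-/- (adjusted p = 0.0163) and 1.87 in BALB/c (adjusted p = 2.96e-06).

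**Figure D2:**
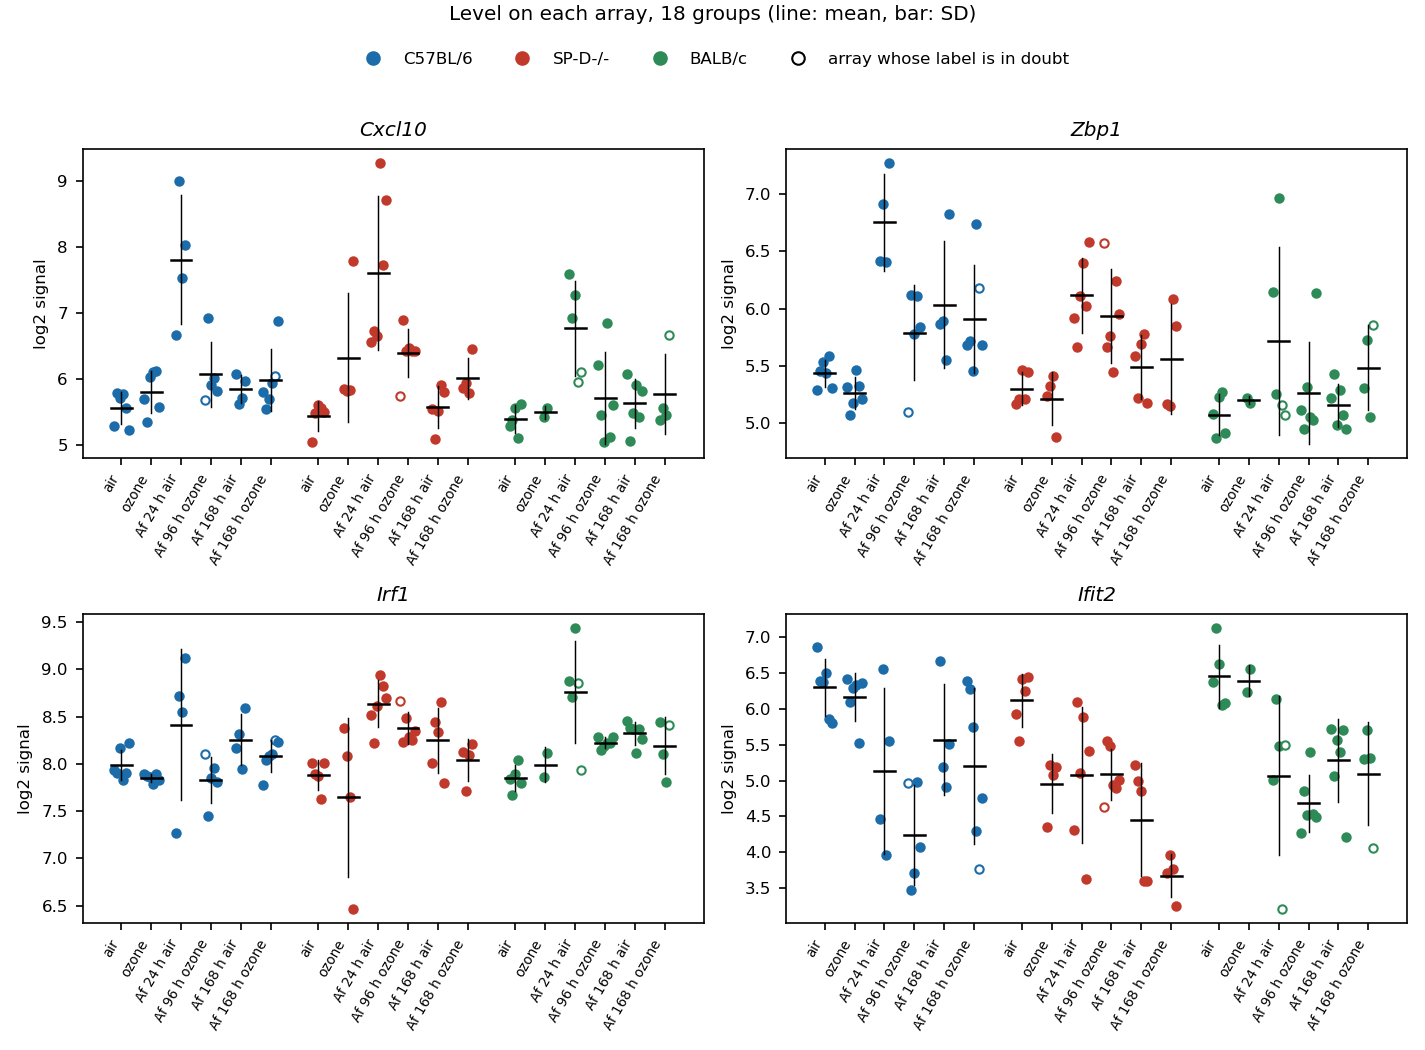
Log2 signal (vertical axis) of Cxcl10, Zbp1, Irf1 and Ifit2 on each array of the 18 groups (horizontal axis), with open symbols for arrays whose label is doubted. Cxcl10 was above every air array on all challenged arrays at 24 h, and within that group the doubted BALB/c arrays (5.94 and 6.09) were the lowest of their strain.

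Markers of other cells moved at the same time. The club cell list, of secretory airway epithelium, was measured on 3 of 3 genes and fell on 2 in C57BL/6, 2 in SP-D-/- and 3 in BALB/c, and its mean level ran from 11.99 to 12.23 in C57BL/6 air and from 9.42 to 11.69 after challenge. The ciliated cell list, of the airway cells that move mucus, had 1 of 2 tested genes lower in each strain. Its mean over 3 genes ran from 5.70 to 6.05 in C57BL/6 air and from 4.76 to 5.02 after challenge, and from 6.09 to 6.43 and then 4.75 to 5.42 in SP-D-/-, without overlap in either. The alveolar type 2 list, measured on 3 of 5 genes, fell on 1 in SP-D-/- and 2 in BALB/c, and in C57BL/6, where none was called, ran from 11.62 to 11.84 in air and from 11.21 to 11.41 after challenge. The endothelial list fell on 2 of 5 genes in C57BL/6 and 3 of 5 in BALB/c. The NK cell list had 1 gene lower in C57BL/6, and its mean ran from 5.15 to 5.70 in C57BL/6 air and from 4.70 to 5.64 after challenge. The plasmacytoid dendritic cell list, measured on 4 of 6 genes, had 1 gene higher in C57BL/6 and spanned 6.97 to 8.17 in air and 7.10 to 8.24 after challenge. No T cell or monocyte marker was called at 24 h, and their C57BL/6 means ran from 5.28 to 5.82 and from 6.40 to 6.81 in air and from 5.24 to 6.06 and from 5.88 to 7.28 after challenge. The actin difference was 1.45 to 1.87 in C57BL/6 air and 2.08 to 3.32 after challenge, and 1.63 to 2.09 and then 2.20 to 3.01 in SP-D-/-, without overlap in either. In BALB/c it was 1.43 to 2.34 in air and 0.87 to 3.66 after challenge, which overlapped. The part of these cells and of RNA integrity in the members' changes was not tested. The marker counts stand against the shares of all genes called at 24 h, given above with the members.

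The wider pathway was read from 3 further gene lists. Of 9 tested interferons and receptors, 2 rose in C57BL/6 at 24 h, the type I interferon genes Ifna1 (1.71 ± 0.57, adjusted p = 0.0319) and Ifna5 (1.22 ± 0.43, adjusted p = 0.0398), whose family members are so alike that a probe set may read several of them. In BALB/c 1 of the 9 fell, the interferon-gamma receptor chain Ifngr1 (-0.73 ± 0.26, adjusted p = 0.0498), and in SP-D-/- none was called. Of 22 signalling and sensing genes, 3 rose in C57BL/6, 1 rose in SP-D-/-, and 3 rose and 1 fell in BALB/c. Ptpn2, a phosphatase that acts on JAK and STAT proteins, rose in each strain, by 2.22 ± 0.43 in C57BL/6 (adjusted p = 0.000262), 1.44 ± 0.40 in SP-D-/- (adjusted p = 0.0207) and 1.80 ± 0.42 in BALB/c (adjusted p = 0.00244). Irf5, a transcription factor downstream of Toll-like receptors, rose by 1.35 ± 0.21 in C57BL/6 and 0.78 ± 0.20 in BALB/c (adjusted p = 0.00703 in the latter). Of 42 other interferon-induced genes, 2 rose and 6 fell in C57BL/6, led by Samd9l (-2.27 ± 0.57), the chemokine gene Cxcl11 (1.72 ± 0.55) and the GTPase gene Gbp7 (-1.60 ± 0.46). In SP-D-/- 1 of the 42 fell, Gbp4 (-0.95 ± 0.26), and in BALB/c 1 rose, Trafd1 (0.91 ± 0.24), and 1 fell, Isg20 (-1.12 ± 0.32). These list counts stand against the shares of all genes called at 24 h, given above with the members.

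The same question was asked at 168 h after challenge with air, when few members passed the test. Here and below, a share of all genes called is at the adjusted p. Where members are counted at an unadjusted p under 0.05, the share of all genes at that threshold is not given. The only member called was Ifit2, which fell in SP-D-/- by 1.66 ± 0.43 on the log2 scale (adjusted p = 0.0286), among 1.35% of all genes called and 0.597% called lower. The SP-D-/- Af 168 h arrays were at 3.60, 3.60, 4.86, 5.0 and 5.22 and the air arrays at 5.55, 5.93, 6.24, 6.41 and 6.44, so that the groups did not overlap. The call was lost in 7 of the 10 fits that left out 1 array, with the change between -1.85 and -1.45, and it was kept in all 8 other alternatives. In C57BL/6 none of the 31 was called by limma (1.35% of all genes, 1 member at an unadjusted p under 0.05). The smallest p-values belonged to Zbp1 (0.60 ± 0.25, adjusted p = 0.271), the membrane protein gene Ifitm3 (-0.63, adjusted p = 0.501) and Psmb9 (0.62, adjusted p = 0.514). In BALB/c none was called either (1.56% of all genes, 5 members at an unadjusted p under 0.05). There Ifit2 differed by -1.17 ± 0.41 (adjusted p = 0.127), with challenged arrays from 4.22 to 5.72 and air arrays from 6.06 to 7.13, which did not overlap. Cmpk2, a nucleotide kinase of mitochondria, differed by 0.66 ± 0.25 (adjusted p = 0.172) and Irf1 by 0.48 ± 0.21 (adjusted p = 0.248). Cxcl10, called at 24 h in each strain, was at 5.62, 5.70, 5.96 and 6.07 in C57BL/6 and at 5.09, 5.50, 5.54, 5.80 and 5.90 in SP-D-/-, which overlapped air in both strains. The median change over the members was 0.08 in C57BL/6, -0.13 in SP-D-/- and -0.09 in BALB/c, against 0.07, 0.05 and -0.03 over all genes. Of the wider lists, Irf5 rose (0.95 ± 0.21, adjusted p = 0.00495) and Dtx3l, a ubiquitin ligase gene, fell (-1.10 ± 0.26, adjusted p = 0.00999) in C57BL/6. The comparisons at 24 h and at 168 h share the air arrays of each strain.

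The comparison of Af 96 h with ozone alone asked what had changed 96 h after challenge in lungs that breathed ozone. In C57BL/6 the members split: the antiviral enzyme gene Oas2, the kinase gene Cmpk2 and the transcription factor gene Irf7 rose, while 7 members fell, Ifit2, Ifit3, Ifitm3, Xaf1, Usp18, Gbp3 and Irf9. These 10 of 31 (32.3%) stood against 36.4% of all genes called, 17.2% higher and 19.2% lower, and the members' median change was -0.33 against -0.00 over all genes. In SP-D-/- none of the 31 was called by limma (2.58% of all genes, 4 members at an unadjusted p under 0.05, median 0.43 against 0.11). In BALB/c, with 2 ozone arrays, none was called (0.0531% of all genes, 1 member at an unadjusted p under 0.05, median -0.03 against 0.04).

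Among the sensors, Oas2, which makes the second messenger that activates RNase L, was at 5.59, 6.49, 6.68, 7.10 and 7.11 on the C57BL/6 Af 96 h arrays and between 5.02 and 5.44 (median 5.29) on the ozone arrays. All 5 were above all 6 ozone arrays, with the doubted array the lowest (1.33 ± 0.28, 2.52-fold, adjusted p = 0.000225). The call held in all 8 alternatives and in all 11 fits without 1 array, with changes of 1.15 to 1.58 in the former and 1.203 to 1.58 in the latter. In SP-D-/- Oas2 was at 4.75, 4.99, 5.49 and 6.35 on ozone and ran from 5.49 through 5.74 to 6.99 at 96 h, with the highest value on a doubted array. In BALB/c it was at 4.55 and 4.88 on ozone and ran from 4.95 through 5.38 to 5.74 at 96 h, which did not overlap but did not pass (0.65 ± 0.38, adjusted p = 1). Irf7, the transcription factor that amplifies type I interferon production, was at 5.11, 5.45, 7.11, 7.35 and 7.46 on the C57BL/6 96 h arrays and between 5.51 and 6.03 on ozone, so 3 arrays were high and the other two, 1 of them doubted, were not (0.82 ± 0.30, 1.77-fold, adjusted p = 0.0277). The Irf7 call was lost with only the groups compared (limma adjusted p = 0.134) and without Af 96 h replicate 2 (0.101), 4 (0.128) or 6 (0.134) or ozone replicate 4 (0.0505). Cmpk2 rose by 0.76 ± 0.25 (1.70-fold, adjusted p = 0.0144), but with the mean of its probe sets the change was 0.16 (adjusted p = 0.667).

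Of the effectors that fell, Ifit2 was at 3.48, 3.72, 4.07, 4.97 and 4.98 at 96 h and between 5.52 and 6.42 (median 6.31) on ozone in C57BL/6. Every 96 h array was lower (-1.93 ± 0.41, adjusted p = 0.000268). The 96 h mean of 4.24 was under the filter of 4.45, so no fold is given. Ifit3, a partner of the other IFIT proteins in RNA binding, fell by 1.38 ± 0.33 (2.61-fold, adjusted p = 0.00112), and Ifitm3, which blocks virus entry at endosomes, by 1.32 ± 0.32 (2.504-fold, adjusted p = 0.00115), also without overlap. Xaf1, which promotes apoptosis, was at 3.38, 4.25, 4.84, 4.93 and 5.73 at 96 h and between 5.68 and 6.94 (median 6.88) on ozone. Only the doubted 96 h array reached the ozone range (-2.04 ± 0.53, 4.11-fold, adjusted p = 0.00256).

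Usp18, the protease that removes ISG15 and restrains receptor signalling, was at 3.14, 4.18, 4.83, 5.95 and 7.58 at 96 h and between 6.51 and 7.38 (median 7.24) on ozone in C57BL/6. The 96 h arrays spread over more than 4 units, with 1 above every ozone array (-1.99 ± 0.62, 3.99-fold, adjusted p = 0.00946), and without Af 96 h replicate 3 the call was lost (0.0663). Gbp3, a guanylate-binding GTPase, was at 3.89, 3.90, 4.35, 4.80 and 5.17 at 96 h and between 4.64 and 6.62 (median 6.41) on ozone (-1.73 ± 0.58, adjusted p = 0.0163), and its 96 h mean of 4.42 was likewise under the filter. Irf9 was at 4.24, 5.05, 5.25, 5.80 and 7.05 at 96 h and between 6.70 and 7.15 (median 6.88) on ozone (-1.42 ± 0.48, 2.67-fold, adjusted p = 0.0177; 0.0862 without Af 96 h replicate 2). These 3 pairs of groups overlapped by 1 or 2 arrays.

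**Figure D3:**
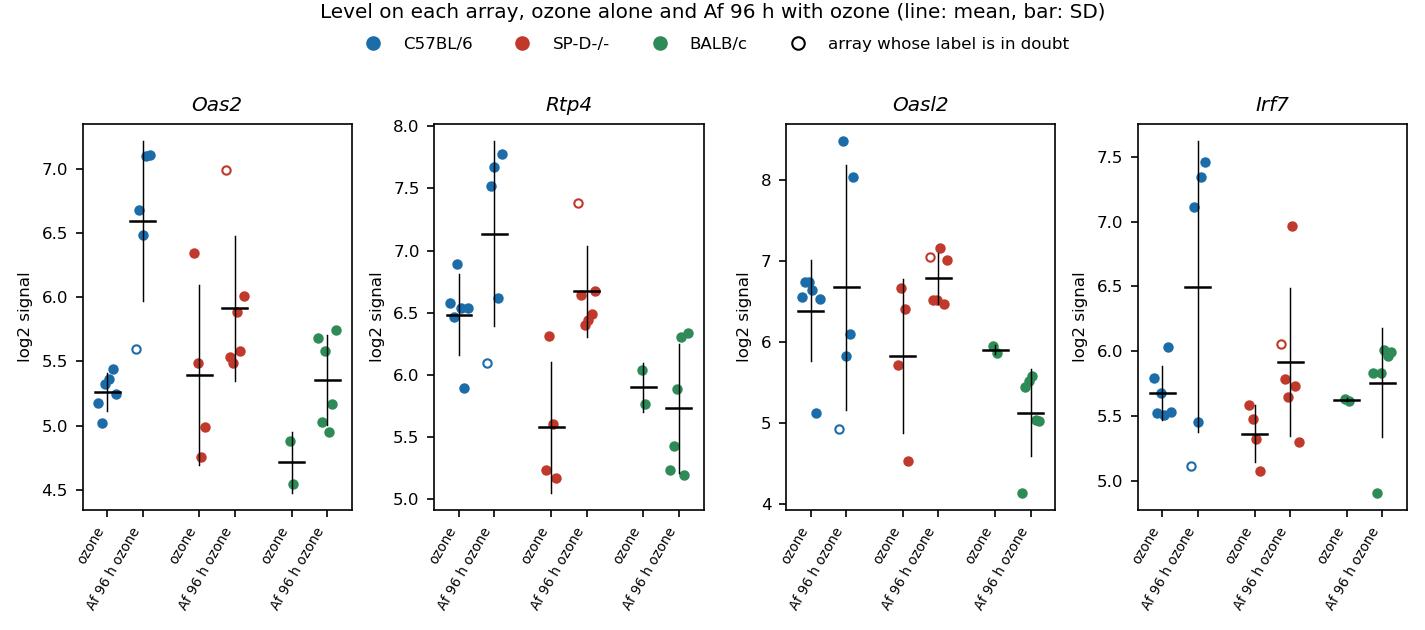
Log2 signal (vertical axis) of Oas2, Rtp4, Oasl2 and Irf7 on each ozone array and each Af 96 h ozone array of the 3 strains (horizontal axis), with open symbols for doubted labels. Oas2 was between 5.59 and 7.11 on the C57BL/6 96 h arrays, above all C57BL/6 ozone arrays, and between 4.95 and 5.74 on the BALB/c 96 h arrays.

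The spike level was 10.9 ± 0.45 (SD, n = 5) on the C57BL/6 96 h arrays and 8.59 ± 1.14 (SD, n = 6) on the ozone arrays, so it moved with this contrast. The actin difference moved too, from 1.48 to 2.01 on the ozone arrays to 2.57 to 3.22 at 96 h, without overlap. In SP-D-/- it was 9.41 ± 0.61 (SD, n = 6) at 96 h and 10.4 ± 1.29 (SD, n = 4) on ozone, the other way round, and the actin difference overlapped (2.26 to 3.60 at 96 h, 2.27 to 3.22 on ozone). With the doubted arrays left out and the spike level as a covariate, 8 members rose and 4 fell in C57BL/6, with 17.1% of all genes called. Those that rose, named after their values were seen, were Oasl2 (1.87 ± 0.50, adjusted p = 0.00526), Rtp4 (1.73 ± 0.27, adjusted p = 3.47e-06), Oas2 (1.43 ± 0.27, adjusted p = 7.14e-05), Rsad2 (1.37 ± 0.47, adjusted p = 0.0332), Psmb9 (1.16 ± 0.27, adjusted p = 0.00115), Irgm1 (1.14 ± 0.42, adjusted p = 0.0495), Irf7 (1.02 ± 0.32, adjusted p = 0.0178) and Zbp1 (0.82 ± 0.25, adjusted p = 0.0148). Oasl2 encodes an OAS-like protein that binds RNA, Rtp4 a receptor transporter protein, and Rsad2 the antiviral enzyme viperin. Those that fell were Eif2ak2, the RNA-activated kinase PKR (-1.22), Ifit2 (-1.21), Ifit3 (-1.05) and Ifitm3 (-0.93). With the doubted arrays left out but no covariate, Eif2ak2 stood at 0.36 ± 0.55 (limma adjusted p = 0.606). Its slope on the spike level was 0.64, and its sign turned with the covariate. Of the members called with all arrays, Cmpk2 (0.25), Xaf1 (-0.83), Irf9 (-0.78), Usp18 (-0.13) and Gbp3 (-0.09) were no longer called. With the actin difference as a further covariate, 6 members rose and none fell (11% of all genes). They were Oasl2 (1.85), Rtp4 (1.82), Irgm1 (1.37), Oas2 (1.15), Irf7 (1.14) and Psmb9 (1.10), while Ifit2 stood at -0.92 (adjusted p = 0.0812), and the signs of Gbp3 (0.03) and Usp18 (0.38) turned.

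**Figure D4:**
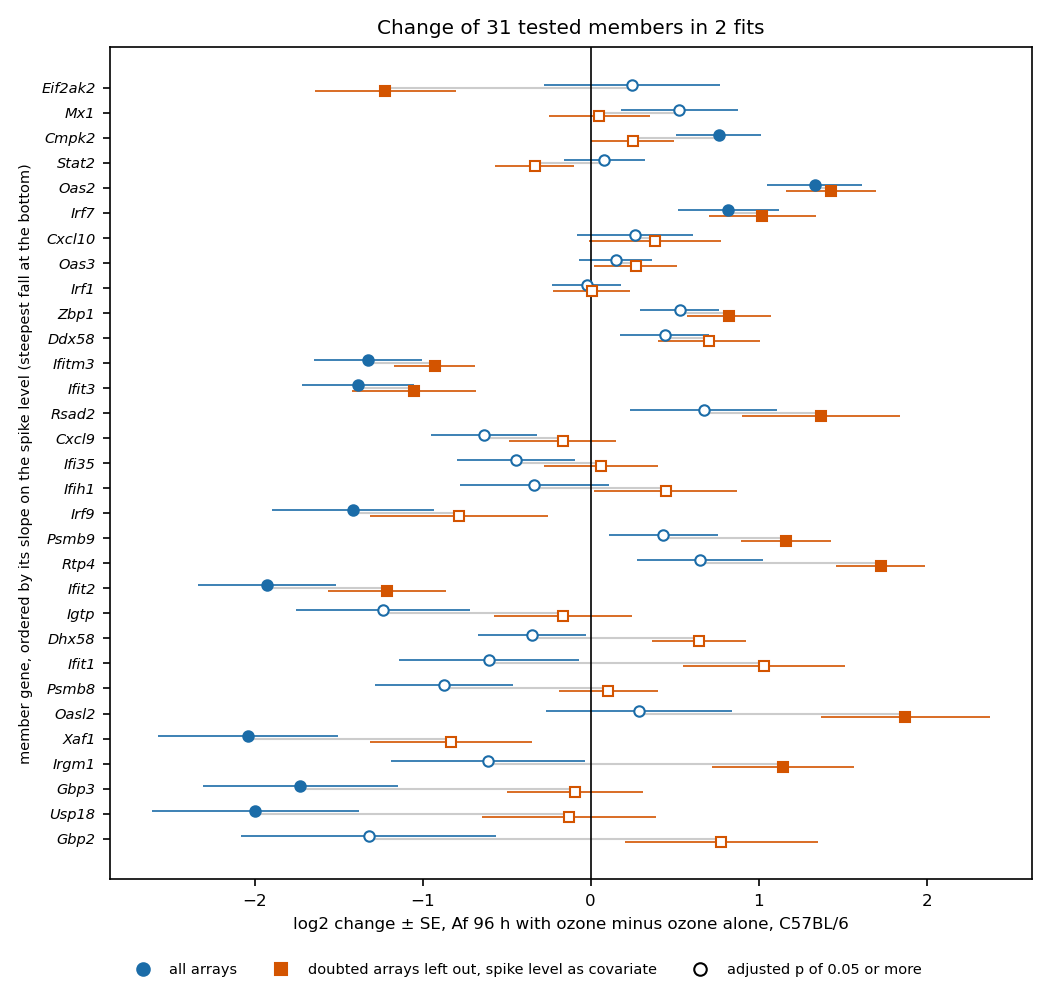
Change at 96 h minus ozone alone in C57BL/6, in log2 units with its SE (horizontal axis), for the 31 tested members (vertical axis, ordered by their slope on the spike level), with all arrays and with doubted arrays left out and the spike level as covariate. Filled symbols passed an adjusted p of 0.05. The fits differ both in the arrays and in the covariate: Usp18 was at -1.99 and -0.13, Gbp3 at -1.73 and -0.09, and Oas2 at 1.33 and 1.43.

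Rtp4 shows how the fits differ. On the C57BL/6 96 h arrays it was at 6.09, 6.61, 7.52, 7.67 and 7.77, with the doubted array lowest, and it ran from 5.89 through 6.54 to 6.89 on ozone. It was not called with all arrays, rose by 0.91 ± 0.32 (adjusted p = 0.0173) without the doubted arrays, and by 1.73 with the spike level as covariate. In SP-D-/- the smallest p-values at 96 h were those of Irf1 (0.73 ± 0.22, adjusted p = 0.0503), Zbp1 (0.73 ± 0.25, adjusted p = 0.0977) and Rtp4 (1.09 ± 0.40, adjusted p = 0.116). Zbp1 was at 4.88, 5.24, 5.32 and 5.41 on ozone and ran from 5.44 through 5.86 to 6.57 at 96 h, without overlap. Rtp4 was at 5.17, 5.23, 5.60 and 6.31 on ozone and ran from 6.40 through 6.56 to 7.39 at 96 h, also without overlap, and the highest value of both genes was on the doubted array. In BALB/c they were those of Ifit2 (-1.71 ± 0.55, adjusted p = 0.515), Ifitm3 (-0.78 ± 0.43, adjusted p = 1) and Oas2. Ifit2 was at 6.24 and 6.55 on ozone and ran from 4.27 through 4.53 to 5.40 at 96 h, so it was lower on every 96 h array.

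In the wider lists at 96 h in C57BL/6, 2 of 9 interferons and receptors rose and 2 fell, with Ifnar2, a chain of the type I receptor, at -1.90 ± 0.57, Ifna1 at 1.87 ± 0.54 and Ifngr2 at 0.86 ± 0.24. Of 22 signalling and sensing genes 4 rose and 6 fell, led by Ptpn2 (1.94 ± 0.40), Mavs, the adaptor of the RNA helicases (-1.86 ± 0.54), and Socs3, a feedback inhibitor (-1.79 ± 0.45). Of 42 other interferon-induced genes 3 rose and 13 fell, led by Slfn8 (2.23 ± 0.50) and by the GTPase genes Tgtp1 (-2.17 ± 0.68) and Irgm2 (-2.12 ± 0.53). The called shares of these lists were 44.4%, 45.5% and 38.1% in that order. They and the marker counts below stand against the share of all genes called in this contrast, given above with the members. In SP-D-/- the kinase gene Ikbke (0.71 ± 0.21, adjusted p = 0.0422) and Ifi27l2a (1.35 ± 0.36, adjusted p = 0.0241) rose. Of the cell markers in C57BL/6, 1 of 2 tested ciliated cell genes rose (list mean 5.08 to 5.95 on ozone, 5.79 to 7.32 at 96 h). All 5 endothelial genes fell, and their mean ran from 8.59 to 8.98 on ozone and from 6.503 to 7.51 at 96 h. The plasmacytoid dendritic cell list rose on 2 of 4 genes (6.96 to 8.11 on ozone, 7.53 to 8.72 at 96 h), and the alveolar macrophage list fell on 2 of 6 (6.85 to 7.56, then 5.79 to 6.94). The NK cell list had 1 gene higher and 1 lower (5.14 to 5.48, then 4.59 to 5.43). Their part in the members' changes was not tested.

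The effect of ozone alone was read against air, 12 h after either gas, and limma's test called no member in any strain. In C57BL/6 none of 31 was called (0.0266% of all genes, 0 members at an unadjusted p under 0.05), 26 members were negative, and the median change was -0.14 against 0.02 over all genes. The smallest p-values were those of Ifit3 (0.57 ± 0.32, unadjusted p = 0.0781), Oas3 (-0.36) and Dhx58, the helicase LGP2 (-0.33), each with an adjusted p of 1. In SP-D-/- none was called (0.0996% of all genes), while the unadjusted p of 6 members was under 0.05, and the median was -0.32 against -0.08. Usp18 was at 3.52, 4.94, 5.29 and 6.78 on ozone and at 6.59, 6.76, 7.30, 7.49 and 7.63 in air, overlapping by 1 array (-2.02 ± 0.68, adjusted p = 0.166). Ifit2 was at 4.35, 5.07, 5.18 and 5.22 on ozone and at 5.55 or higher in air, without overlap (-1.16 ± 0.46, adjusted p = 0.208). Dhx58 differed by -0.90 ± 0.35 (adjusted p = 0.211). The spike level was 10.4 ± 1.29 (SD, n = 4) on the SP-D-/- ozone arrays and 9.04 ± 1.30 (SD, n = 5) in air. In BALB/c none was called (0.0133% of all genes, 0 members at an unadjusted p under 0.05), and Rtp4 (-0.75 ± 0.51), Stat2 (-0.41) and Rsad2 (-0.65) had the smallest p-values, each with an adjusted p of 1.

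The effect of ozone after challenge was read at 168 h, ozone against air. No member was called in C57BL/6 (0.0597% of all genes), SP-D-/- (0.604%) or BALB/c (0.0199%) by limma's test, and the unadjusted p was under 0.05 for 2, 5 and 1 members in that order. The median change over members was -0.18, -0.31 and -0.01, and that over all genes is not given here. In SP-D-/-, Rtp4 was at 3.99, 4.53, 5.46 and 6.11 with ozone and at 5.94, 6.05, 6.59, 6.62 and 6.69 with air, with 1 ozone array inside the air range (-1.35 ± 0.41, adjusted p = 0.0855). Psmb9 differed by -1.15 ± 0.36 (adjusted p = 0.0942) and Stat2 by 0.63 ± 0.27 (adjusted p = 0.228). No array of these groups is doubted, yet with the doubted arrays of other groups left out of the shared spread Rtp4 (adjusted p = 0.0147) and Psmb9 (adjusted p = 0.0288) passed, with 3.58% of all genes called. In C57BL/6 the smallest p-values were those of the GTPase genes Irgm1 (-1.54 ± 0.61, adjusted p = 0.244) and Gbp2 (-1.94 ± 0.81, adjusted p = 0.259) and of Psmb9 (-0.62, adjusted p = 0.351). In BALB/c they were those of Cmpk2 (-0.54 ± 0.27, adjusted p = 0.621), Eif2ak2 (-0.81, adjusted p = 0.805) and Ddx58 (-0.39, adjusted p = 0.83).

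BALB/c was compared with C57BL/6 under each of the 6 exposures, and most of the called differences lay at 96 h, where Oas2 and Rtp4 were lower in BALB/c. Oas2 differed by -1.24 ± 0.28 (2.36-fold, adjusted p = 0.00396) and Rtp4 by -1.41 ± 0.37 (2.65-fold, adjusted p = 0.0143), among 6.26% of all genes called and 2.49% called lower. With the mean of its probe sets Rtp4 differed by -0.60 and was not called (adjusted p = 0.156). Rtp4 ran from 5.19 through 5.65 to 6.33 in BALB/c, so the only C57BL/6 array that fell in this range was the doubted one at 6.09, and for Oas2 it was likewise the doubted one at 5.59. Without the doubted arrays 8 members were lower in BALB/c and none higher, among 17.5% of all genes. Besides Oas2 (-1.49) and Rtp4 (-1.67) these were Oasl2 (-1.98), Ifit1 (-1.88), the GTPase gene Mx1 (-1.16), Rsad2 (-1.43), Irf7 (-1.09) and Zbp1 (-0.70), named after their values were seen. The count was also 8 with the spike level as covariate (12.6% of all genes) and with the actin difference added (14.2%). Ifit1 ran from 3.75 through 4.37 to 5.52 in BALB/c, and from 3.16 through 6.47 to 7.35 on the 5 C57BL/6 arrays. Oasl2 ran from 4.14 through 5.24 to 5.58 in BALB/c and was at 4.93, 5.83, 6.10, 8.03 and 8.47 in C57BL/6, with the doubted array lowest. Of the ciliated cell markers, 2 of 2 tested were lower in BALB/c at 96 h, and 2 of 5 endothelial markers were higher; their part was not tested.

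Under the other exposures 1 member was called between these strains, Zbp1 at 24 h (-1.03 ± 0.26, 2.05-fold lower in BALB/c, adjusted p = 0.0472), among 0.385% of all genes called and 0.232% called lower. It was not called in 6 of 8 alternatives. In air none was called by limma (0.511% of all genes, 2 members at an unadjusted p under 0.05). There 27 of 31 members were lower in BALB/c, with a median of -0.31. The direction and median of all genes are not given here or for the other exposures. Psmb9 differed by -0.81 ± 0.32 (adjusted p = 0.774) without overlap, and Oas3 (-0.46) and Cmpk2 (-0.47) had adjusted p-values of 1. On ozone none was called (0.146%, 0 members at an unadjusted p under 0.05, median -0.37), with Ifit3 (-0.82), Rsad2 (-1.07) and Stat2 (-0.54) at an adjusted p of 1. At 168 h with air none was called (0.597%, 5 members at an unadjusted p under 0.05, median -0.48). There Zbp1 ran from 4.95 through 5.15 to 5.43 in BALB/c and was at 5.55, 5.86, 5.89 and 6.83 in C57BL/6, without overlap (-0.88 ± 0.25, adjusted p = 0.0897). Psmb9 (-1.04 ± 0.35, adjusted p = 0.18) and Ifit3 (-0.82, adjusted p = 0.436) did not overlap either. At 168 h with ozone none was called (0.139%, 2 members at an unadjusted p under 0.05, median -0.16), and Cmpk2 (-0.69, adjusted p = 0.56), Oas2 (-0.68, adjusted p = 0.596) and Eif2ak2 (-1.08, adjusted p = 0.659) had the smallest p-values.

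The same was done for SP-D-/- and C57BL/6, and no member differed between them by limma's test under any of the 6 exposures. In air, 0.0664% of all genes were called at the adjusted p, and 0 members had an unadjusted p under 0.05. There 28 of 31 members were lower in SP-D-/- and the median was -0.13. The direction and median of all genes are not given here or for the other exposures. Ifit3 (-0.48), Rsad2 (-0.61) and Eif2ak2 (-0.65) had the smallest p-values, with an adjusted p of 1. On ozone (0.797% of all genes, 5 members at an unadjusted p under 0.05, median -0.46) Usp18 differed by -2.0 ± 0.66 (adjusted p = 0.108), Ifit2 by -1.21 ± 0.44 (adjusted p = 0.141) and Rtp4 by -0.91 ± 0.40 (adjusted p = 0.215). At 24 h 0.0863% of all genes were called at the adjusted p, and 4 members had an unadjusted p under 0.05. Oas3, an enzyme of the same family as Oas2, was at 4.61, 4.93, 5.12 and 5.41 in C57BL/6 and between 3.95 and 4.39 in SP-D-/-. The groups did not overlap (-0.86 ± 0.23, adjusted p = 0.117), although the SP-D-/- values were below the filter, and these values were chosen after they had been seen. Zbp1 (-0.64, adjusted p = 0.378) and Ddx58 (-0.68, adjusted p = 0.397) came next. At 168 h with air 0.0199% of all genes were called at the adjusted p, and 3 members had an unadjusted p under 0.05 (median -0.30). Oas3 (-0.60), Ifit2 (-1.11 ± 0.46) and Zbp1 (-0.54) had an adjusted p of 0.995. At 168 h with ozone 0.504% of all genes were called at the adjusted p, and 5 members had an unadjusted p under 0.05 (median -0.35). Ifit2 was at 3.25, 3.71, 3.76 and 3.96 in SP-D-/- and differed by -1.53 ± 0.44 (adjusted p = 0.0768). Ddx58 (-0.82, adjusted p = 0.158) and Xaf1 (-1.39, adjusted p = 0.264) followed. Without the doubted arrays Ifit2 passed there (-1.82, adjusted p = 0.00888).

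At 96 h, 16.2% of all genes but none of the members differed between SP-D-/- and C57BL/6 at an adjusted p under 0.05. There were 10 members at an unadjusted p under 0.05, and the members' median was 0.29. The share of all genes at the unadjusted threshold and their median are not given here, so these 2 values cannot be read against them. Irf1 ran from 8.23 through 8.31 to 8.67 in SP-D-/- and was at 7.45, 7.81, 7.85, 7.96 and 8.11 in C57BL/6, without overlap (0.55 ± 0.21, adjusted p = 0.055). Gbp3 did not overlap either, with 5.52 to 6.39 in SP-D-/- (1.497 ± 0.58, adjusted p = 0.0607), and Ifi35, an interferon-induced leucine zipper protein, differed by 0.85 ± 0.35 (adjusted p = 0.0754). Without the doubted arrays 2 members were higher in SP-D-/-, Ifit2 (1.12) and Ifitm3 (0.69), and 3 lower, Oas2 (-1.14), Irf7 (-0.96) and Rtp4 (-0.87), among 25.5% of all genes. With the spike level as covariate Oas2 (-1.05) and Rtp4 (-1.41) stayed lower, among 4.14% of all genes.

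The difference between the responses of SP-D-/- and C57BL/6 was itself tested in the same fit for 5 exposures. For Af 96 h with ozone, 5 members had a higher and 1 a lower value, among 27.4% of all genes called (16.8% higher, 10.6% lower), and the members' median was 0.75 against 0.20 over all genes. They were Usp18 (3.11 ± 0.90, adjusted p = 0.0114), the guanylate-binding GTPase gene Gbp2 (2.91 ± 1.11, adjusted p = 0.0424), Gbp3 (2.67 ± 0.85, adjusted p = 0.0181), Irf9 (2.08 ± 0.70, adjusted p = 0.0246), Ifit2 (2.06 ± 0.60, adjusted p = 0.012) and Cmpk2 (-0.99 ± 0.37, adjusted p = 0.0369). Without SP-D-/- ozone replicate 5, whose spike level was 11.4, the count fell from 6 to 1, Ifit2. The other 5 then had limma adjusted p-values of 0.0583 for Usp18, 0.0599 for Gbp3, 0.15 for Gbp2, 0.158 for Cmpk2 and 0.163 for Irf9, whose difference became 1.34. The share of all genes called in that fit is not given here. Gbp2 lost its call in 14 of the 21 fits that left out 1 array, and Cmpk2 stood at 0.09 (adjusted p = 0.877) with the mean of its probe sets. Gbp2 ran from 5.51 through 7.03 to 7.34 on C57BL/6 ozone and was at 3.76, 4.18, 4.90, 6.06 and 8.56 at 96 h. In SP-D-/- it was at 3.90, 4.86, 6.78 and 7.26 on ozone and ran from 6.16 through 7.57 to 7.85 at 96 h. So the level was low on some arrays of the C57BL/6 96 h group and of the SP-D-/- ozone group, and the part of the spike level in this was not tested. Irf9 in SP-D-/- was at 3.70, 6.49, 6.64 and 6.80 on ozone, with replicate 5 the lowest, and from 6.30 to 6.84 at 96 h. Cmpk2 in SP-D-/- was at 5.43, 5.53, 6.06 and 6.69 on ozone and from 5.38 to 5.94 at 96 h, against 5.05 to 6.03 and then 6.07, 6.10, 6.16, 6.31 and 6.56 in C57BL/6. With the doubted arrays left out 9 members were higher and 2 lower (35.7% of all genes), and with the spike level as covariate none was called (0.737% of all genes). Adding the actin difference again left none (0.246%). Normalization by cyclic loess moved the median of all genes in this contrast from 0.20 to 0.10.

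For the other 4 exposures no member's response differed by limma's test. The counts at an unadjusted p under 0.05 were 1 for ozone, 0 for Af 24 h, 0 for Af 168 h with air and 0 for ozone at 168 h. The share of all genes called was 0%, 0%, 0.00664% and 0.0398% in that order. On ozone Usp18 differed by -1.94 ± 0.90 (adjusted p = 0.635), Ifit2 by -1.03 and Cmpk2 by 0.54. At 24 h Oas3 (-0.60), Ddx58 (-0.73) and Ifih1 (1.2) had an adjusted p of 0.998. At 168 h with air Ddx58 (-0.60), Ifit2 (-0.93) and Dhx58 (-0.66) had one of 0.999, and for ozone at 168 h Xaf1 (-1.16) had one of 0.977.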

How the data were processed

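Total RNA of the left lung lobe was amplified with a NuGEN system and hybridised to Affymetrix HT Mouse430PM arrays, per the labels' protocols. The authors deposited 1 table of normalized log2 signals for 45141 probe sets on 89 arrays, with values from 1.86 to 13.5 and a median of 4.90. The normalization software is not given in the sources used here. Of the probe sets, 28898 carried 1 gene symbol in GEO's platform annotation, 551 several and 15692 none, and only the first kind was used. Probe sets give hybridisation signals, so levels were not compared between genes, and the number of arrays limits the precision.

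Each gene was read from its probe set with the highest mean over all arrays, and genes were tested if 4 or more arrays exceeded a log2 of 4.45, the 40th percentile of the whole table. Group means of all 18 groups were fitted with limma 3.58.1 in R 4.3.3, and 32 contrasts (15 between exposures, 12 between strains, 5 between responses) were tested with two-sided moderated tests, adjusted by Benjamini-Hochberg over 15065 genes, with a call at an adjusted p under 0.05. A change is a difference of mean log2 values, given with its standard error. Contrasts within a strain share their control arrays. Replicates were samples with separate numbers in the titles, and nothing in the labels says more of their independence, so p-values measure the spread between these arrays. The fit was tested on simulated data in 4 contrasts. In each, 100 of 15065 genes were changed by 1 log2 unit and 100 others by 2, with independent normal noise. Fewer genes changed there than were called in some of the real contrasts, so the shares are not the power of those tests. A change of 1 log2 unit was called for 35% of the changed genes for Af 24 h in C57BL/6 and 27% for Af 96 h in C57BL/6. It was called for 30% for BALB/c against C57BL/6 at 24 h and 12% for the response at 96 h. For a change of 2 units the shares were 87%, 90%, 81% and 61% in that order. A member that was not called may therefore still have changed.

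In each contrast the text names the called members, up to the 8 with the largest change, or, with none called, the 3 with the smallest p-value. Values per array follow this rule for the 8 members called most often (Ifit2, Cxcl10, Zbp1, Usp18, Gbp3, Irf9, Oas2 and Cmpk2) and the 4 with the largest range of group means (Ifit2, Gbp2, Xaf1 and Cxcl10), and those of any other member were chosen after they had been seen. Other pathway genes were named up to 3 per list. The members, the lists and the rule were chosen with earlier results of these data known.

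Alternatives were cyclic loess on top of the deposited values, a gene's probe sets averaged, no filter, the replicate number as a block, only the groups of the comparison, each array left out in turn, and the doubted arrays left out, alone, with the spike level as a covariate, or with the spike level and actin difference as covariates. Same-numbered arrays deviated together, with every pair's correlation over 0.1, in 2 contrasts: ozone against air at 168 h in C57BL/6 (4 of 4 pairs, mean correlation 0.337) and BALB/c against C57BL/6 at 168 h with air (4 of 4 pairs, mean 0.256). An array's best match was the one of its own number in 2 of 4 cases in the former and 1 of 4 in the latter, and the labels state no pairing. Promoters were searched with Python 3.11.15, and figures were drawn with matplotlib 3.10.9.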

Additional observations from a re-analysis of the deposited data

Results flagged for a closer look

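Arrays that stood apart from the rest of their group were looked for in 13 of the genes whose values per array are described (Ifit2, Cxcl10, Zbp1, Usp18, Gbp3, Irf9, Oas2, Cmpk2, Gbp2, Xaf1, Irf1, Rtp4 and Oasl2), over 221 pairs of a gene and a group of 4 to 6 arrays. Of these, 29 (13.1%) had a highest or lowest array whose gap to its neighbour exceeded the 95% limit of Dixon's test, where chance gives about 1 in 20. SP-D-/- Af 24 h replicate 1 was low in Irf9 (5.20), Oasl2 (3.92), Rtp4 (4.96), Xaf1 (3.07) and Gbp2 (4.06), with a spike level of 11.6. C57BL/6 ozone replicate 5 was low in Oasl2 (5.13), Ifit2 (5.52), Xaf1 (5.68), Usp18 (6.51), Gbp2 (5.51) and Gbp3 (4.64), with a spike level of 10.9. BALB/c Af 168 h ozone replicate 6, whose label is doubted, was low in Rtp4 (4.22), Xaf1 (5.33) and Gbp3 (3.505) and high in Cxcl10 (6.66), with a spike level of 11.1. SP-D-/- Af 96 h ozone replicate 1, also doubted, was high in Oas2 (6.99) and Rtp4 (7.39), with a spike level of 9.42. In the same group replicate 4 was low in Xaf1 (3.42) and Usp18 (4.63), with a spike level of 10.5.

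SP-D-/- ozone replicate 5 was low in Irf9 (3.70) and high in Cxcl10 (7.79), and replicate 2 of that group was low in Ifit2 (4.35). Their spike levels were 11.4 and 11.1. SP-D-/- air replicate 2, with a spike level of 11.1, was high in Oasl2 (7.11) and low in Cxcl10 (5.05). The remaining single values were Zbp1 high in BALB/c Af 96 h ozone replicate 6 (6.14), Oasl2 low in C57BL/6 Af 24 h replicate 1 (3.92), and Cmpk2 low in C57BL/6 Af 24 h replicate 3 (5.86). The spike levels of these arrays were 9.81, 11.8 and 8.80 in that order. In C57BL/6, Xaf1 was also low in Af 168 h ozone replicate 6 (4.76) and Cxcl10 high in Af 96 h ozone replicate 2 (6.92), with spike levels of 10.97 and 10.99. The part of the spike level in these values was not tested.

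A tested difference between the SP-D-/- and C57BL/6 responses at 96 h was found for Usp18 (3.11), Gbp2 (2.91), Gbp3 (2.67), Irf9 (2.08), Ifit2 (2.06) and Cmpk2 (-0.99), in log2 units. None of the 6 was called with the doubted arrays left out and the spike level as covariate.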

How the results depend on the processing

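The count of members called was within 1.5 times of its first value under every alternative other than single arrays left out in 15 of 32 contrasts, and with single arrays left out in 19 of 32. With the doubted arrays left out, the count for Af 24 h in BALB/c went from 3 to 6 (5.79% of all genes). These 6 include Cxcl9, which entered the test through the few arrays where it was high, some of them in this group. For ozone at 168 h in SP-D-/- the count went from 0 to 2 (3.58%). Between SP-D-/- and C57BL/6 it went from 0 to 5 at 96 h (25.5%) and from 0 to 1 at Af 168 h ozone (2.27%). Between BALB/c and C57BL/6 it went from 1 to 0 at 24 h (0.352%), from 2 to 8 at 96 h (17.5%) and from 0 to 1 at 168 h with air (0.903%). It went from 6 to 11 for the response at 96 h (35.7%). With the spike level as covariate too, counts were 6 for Af 24 h in BALB/c (8.99%, again with Cxcl9) and 2 for ozone at 168 h in SP-D-/- (2.29%). Between SP-D-/- and C57BL/6 they were 2 at 96 h (4.14%), 1 at Af 168 h ozone (1.15%), 1 on ozone (1.01%) and 1 at 24 h (0.79%). Between BALB/c and C57BL/6 they were 0 at 24 h (0.498%), 8 at 96 h (12.6%) and 1 in air (1.09%), and the count at 168 h with air returned to 0. For Af 168 h in SP-D-/- the count was 2 (4.48%), and for the response 0 (0.737%). Gbp2 in the response turned from 2.91 to -0.060. With the actin difference added, the changed counts were 2 for Af 24 h in C57BL/6 (4.94%) and 6 for Af 24 h in BALB/c (2.71%, again with Cxcl9). They were 2 for Af 168 h (2.23%) and 2 for ozone at 168 h (2.65%) in SP-D-/-, and 6 for Af 96 h in C57BL/6 (11%). Between SP-D-/- and C57BL/6 they were 1 at 24 h (0.863%), 2 at 96 h (4.25%) and 1 at Af 168 h ozone (1.1%). Between BALB/c and C57BL/6 they were 1 in air (1.12%), 0 at 24 h (0.544%) and 8 at 96 h (14.2%). The count for the response was 0 (0.246%). There Gbp3 (0.026) and Usp18 (0.38) turned at 96 h in C57BL/6 and Gbp2 (-0.12) in the response. With only the groups compared, counts were 1 for Af 24 h (4.99% of all genes) and 1 for Af 168 h (5.93%) in BALB/c, 2 for Af 168 h in C57BL/6 (13.6%), 2 on ozone (1.52%) and 1 at 96 h (21.3%) between SP-D-/- and C57BL/6, 4 in air (2.9%) and 0 at 24 h (0.00664%) between BALB/c and C57BL/6, and 10 for the response (32.9%). With the mean of all probe sets they were 1 for Af 96 h in SP-D-/- (2.59%), 2 at 96 h between SP-D-/- and C57BL/6 (17.3%), and 0 at 24 h (0.438%) and 1 at 96 h (6.72%) between BALB/c and C57BL/6, and Cmpk2 in the response turned to 0.091. No filter gave 1 for Af 96 h in SP-D-/- (2.26%), and loess 4 at 96 h between BALB/c and C57BL/6 (6.2%). The cause of these shifts was not tested.

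With the replicate number as a block, the count at 96 h between SP-D-/- and C57BL/6 was 3 (0 without, 22.5% of all genes). It was 0 at 24 h between BALB/c and C57BL/6 (1 without, 0.285%) and 11 for the response at 96 h (6 without, 33.1%), and within 1.5 times elsewhere. In the 2 contrasts where every same-numbered pair of arrays was correlated over 0.1 the blocked count was 0, as without the block.

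With each array left out in turn, counts ran from 0 to 2 for ozone in SP-D-/- (highest without ozone replicate 3), from 2 to 9 for Af 24 h in C57BL/6, from 1 to 3 in SP-D-/- (lowest without Af 24 h replicate 4) and from 2 to 5 in BALB/c. They ran from 0 to 1 for Af 168 h, 0 to 3 for Af 96 h and 0 to 3 for ozone at 168 h in SP-D-/-. Between SP-D-/- and C57BL/6 they ran from 0 to 1 on ozone, 0 to 4 at 96 h (highest without C57BL/6 replicate 6) and 0 to 1 at Af 168 h ozone. Between BALB/c and C57BL/6 they ran from 0 to 1 at 24 h and 2 to 7 at 96 h (highest without C57BL/6 replicate 1, which is doubted). For the response at 96 h they ran from 1 (without SP-D-/- ozone replicate 5) to 10. The share of all genes called in these fits is not given here, so a moved count cannot be told from a move of all genes. Cxcl10 at 24 h stayed called in each strain in all 8 alternatives and without any 1 array.

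The groups hold 2 to 6 arrays, and dim members such as Cxcl9, Oas3 and Dhx58 were near the lower end of the signal.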

Other observations

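Of the 33 measured members, the mean log2 signal per array ran from 5.15 to 6.96 over the 89 arrays. It was most spread in Af 24 h of C57BL/6 (5.33 to 6.96, SD 0.73, n = 4) and of BALB/c (5.25 to 6.84, SD 0.67, n = 5), where the lowest 2 BALB/c arrays were the doubted ones at 5.25 and 5.42. The C57BL/6 means of 6.96, 6.67, 6.00 and 5.33 had spike levels of 8.80, 9.61, 11.2 and 11.8 in that order. The BALB/c means of 6.84, 6.43, 5.93, 5.42 and 5.25 had spike levels of 9.25, 9.09, 10.3, 9.85 and 11.7. The part of the spike level in this spread was not tested. In air the spread was smaller, with SDs of 0.16 in C57BL/6 (n = 6), 0.12 in SP-D-/- (n = 5) and 0.07 in BALB/c (n = 5). Mx2 and Oasl1, which were not tested, had mean signals of 3.60 and 3.76 over all arrays.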
